A study of Mus musculus with 24 samples.

Results

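The 41 genes described here are direct transcriptional targets of the tumour suppressor p53 and were taken from a list of its targets in arrest, apoptosis, repair and metabolism. All 41 symbols were found among the 45706 Ensembl gene identifiers of each count table, and all 41 passed the filter on low counts in every comparison. By function they comprised 8 genes of cell cycle and growth, 15 of apoptosis and survival, 5 of DNA repair and nucleotide supply, 8 of metabolism and redox, and 5 of signalling and trafficking. The RNA-seq data comprised 24 libraries of mouse organoids, epithelial cultures grown from crypts in gel, of which 12 were of small intestinal (SI) and 12 of colonic (COL) origin. The C57BL/6N donors had one of 3 genotypes, a conditional Braf V600E allele (BRAF), a conditional Trp53 R172H allele (p53) or both (BRAFp53). All alleles were heterozygous and combined with Villin::CreERT2, a tamoxifen-dependent Cre recombinase that the Villin promoter drives in intestinal epithelium. Organoids received 4-hydroxytamoxifen (4-HT) for 24 h at 0.5 µM in SI and 3.5 µM in COL (on), or ethanol (off). RNA was taken on day 8 in SI and on day 3 in COL. The study's methods also add Wnt3a and a GSK3 inhibitor to the medium of colonic crypts. Tissue therefore cannot be told apart from dose, time and medium. Each genotype was 1 culture per tissue with 2 off and 2 on libraries. The p-values of the responses and their differences therefore measure the spread between libraries of a culture and not between animals. Those of the off comparison between tissues measure the spread between cultures, which differ in genotype. Genotype cannot be told apart from donor.

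p53 is held at a low level by the ubiquitin ligase MDM2. After DNA damage or oncogene signalling it accumulates, binds its response elements and activates genes that halt the cell cycle, repair DNA, adjust metabolism or promote apoptosis. R172H lies in the DNA-binding domain, and the study describes the mutant protein as dominant negative. Before recombination a stop cassette keeps the conditional Trp53 allele silent, so that off p53 and BRAFp53 organoids express Trp53 from the wild-type allele alone, whereas both alleles are wild type in BRAF organoids. Many of the 41 genes also respond to other factors. Plk2, Plk3, Btg2 and Gadd45a are known as immediate early genes, and Gdf15, Sesn2, Pmaip1 and Tnfrsf10b respond to ATF4 or CHOP.

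Promoters from RefSeq (GRCm38.p6, 250 bases before to 50 bases after the gene start) were matched for 32 of the 41 genes. The p53 consensus decamer, searched on both strands without mismatch, was present in 10 of the 32 promoters (31.2%), against 9.55% of the promoters of 27025 genes. A paired element, counted as 2 decamers with at most 2 mismatches in all and at most 13 bases between them, was found for Ccng1, Bax, Ckap2, Gadd45a and Sesn1 (15.6%), against 4.71% of all promoters. A match describes letters and not a bound site, and a promoter without one may have its element elsewhere. The elements of Bax and Ccng1, which rose in COL BRAF organoids, and of Ckap2 and Sesn1, which fell there, are shown 5′ to 3′ on the strand of the gene, with the decamers in capitals. The RefSeq start used for Sesn1 is an internal one, since GENCODE M21 places the start of this plus-strand gene at position 41809935 of chromosome 10, far upstream of the element shown.
Ccng1 (chr11:40755432-40755511, minus strand, 1 mismatch): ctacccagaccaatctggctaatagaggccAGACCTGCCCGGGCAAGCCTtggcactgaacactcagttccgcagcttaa
Bax (chr7:45467060-45467144, minus strand, 2 mismatches): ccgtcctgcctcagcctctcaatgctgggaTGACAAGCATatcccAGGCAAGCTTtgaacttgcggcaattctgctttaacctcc
Ckap2 (chr8:22185973-22186052, minus strand, 2 mismatches): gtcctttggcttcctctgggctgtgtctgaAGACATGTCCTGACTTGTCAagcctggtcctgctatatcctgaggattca
Sesn1 (chr10:41887223-41887305, plus strand, 2 mismatches): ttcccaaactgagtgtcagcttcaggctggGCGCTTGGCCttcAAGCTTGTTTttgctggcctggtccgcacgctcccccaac

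Libraries held 51.2 to 78.2 M counts in COL and 44.4 to 68.2 M counts in SI, where 3 counts correspond to at most 0.0586 and 0.0676 CPM, the count of a gene per M counts of the library. Levels are CPM after TMM scaling (trimmed mean of M-values) of the libraries of each tissue. The 5 epithelial markers were at 363 CPM or more in every library, and 10 stromal and immune markers summed to at most 5.37 CPM, with Dcn at most 0.0155 CPM. The summed epithelial markers differed between states, at 7220 to 7570 CPM in off and 16800 to 17700 CPM in on libraries of COL BRAF organoids and at 7460 to 7790 CPM in off and 15600 to 19500 CPM in on libraries of COL BRAFp53 organoids. In SI they were at 5460 to 5470 CPM in off and 9030 to 10300 CPM in on libraries of BRAF organoids, and at 4410 to 4630 CPM in off and 6500 to 6540 CPM in on libraries of BRAFp53 organoids. In p53 organoids they were at 11800 to 12300 CPM in off and at 17000 and 12200 CPM in on libraries of COL, and at 4440 to 4600 CPM in SI. Their part in the results was not tested. Car1 separated COL (1470 CPM or more) from SI (at most 0.24 CPM). Gata4, a small intestinal marker at 72.9 to 109 CPM in SI, was at 35.8 to 54.8 CPM in the COL BRAF culture and at most 2.95 CPM in the other COL cultures. SI BRAF on library 1 held 15.4 CPM of Xist, against at most 0.438 CPM in the other SI BRAF libraries and at least 104 CPM in the SI p53 and BRAFp53 cultures. For the SI BRAF response and its differences from other responses, results are also given without this library. Counts over several comparisons, such as calls shared between them, include it. Trp53 rose upon induction in COL p53, COL BRAFp53 and SI BRAFp53 organoids (log2 fold change 0.94, 0.94 and 0.52, edgeR adjusted p = 0.0226, 0.000623 and 0.0236), had a log2 fold change of 0.76 in SI p53 organoids (edgeR adjusted p = 0.194), and fell in BRAF organoids (-0.44 in COL and -0.62 in SI, edgeR adjusted p = 0.0332 and 0.00351). Without SI BRAF on library 1 the SI value was -0.78 (edgeR adjusted p = 0.00106). The call in COL p53 organoids was lost without off library 1 or on library 1, that in SI BRAFp53 organoids without off library 1, off library 2 or on library 1, and that in COL BRAF organoids without any 1 of the 4 libraries (edgeR adjusted p up to 0.23, 0.22 and 0.201). Counts per gene do not separate R172H from wild-type transcripts.

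In off organoids, Bax, the pore-forming effector of mitochondrial apoptosis, stood highest of the 41 genes in COL at 90.9 CPM per kb of exon and was at 94.6 CPM per kb in SI. Ephx1, the microsomal epoxide hydrolase, was at 32.7 CPM per kb in COL and at 171 CPM per kb in SI. Ak1, an adenylate kinase, and Rrm2b, a ribonucleotide reductase subunit, stood low at 0.442 and 0.523 CPM per kb in COL and at 0.127 and 0.295 CPM per kb in SI.

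**Figure D1:**
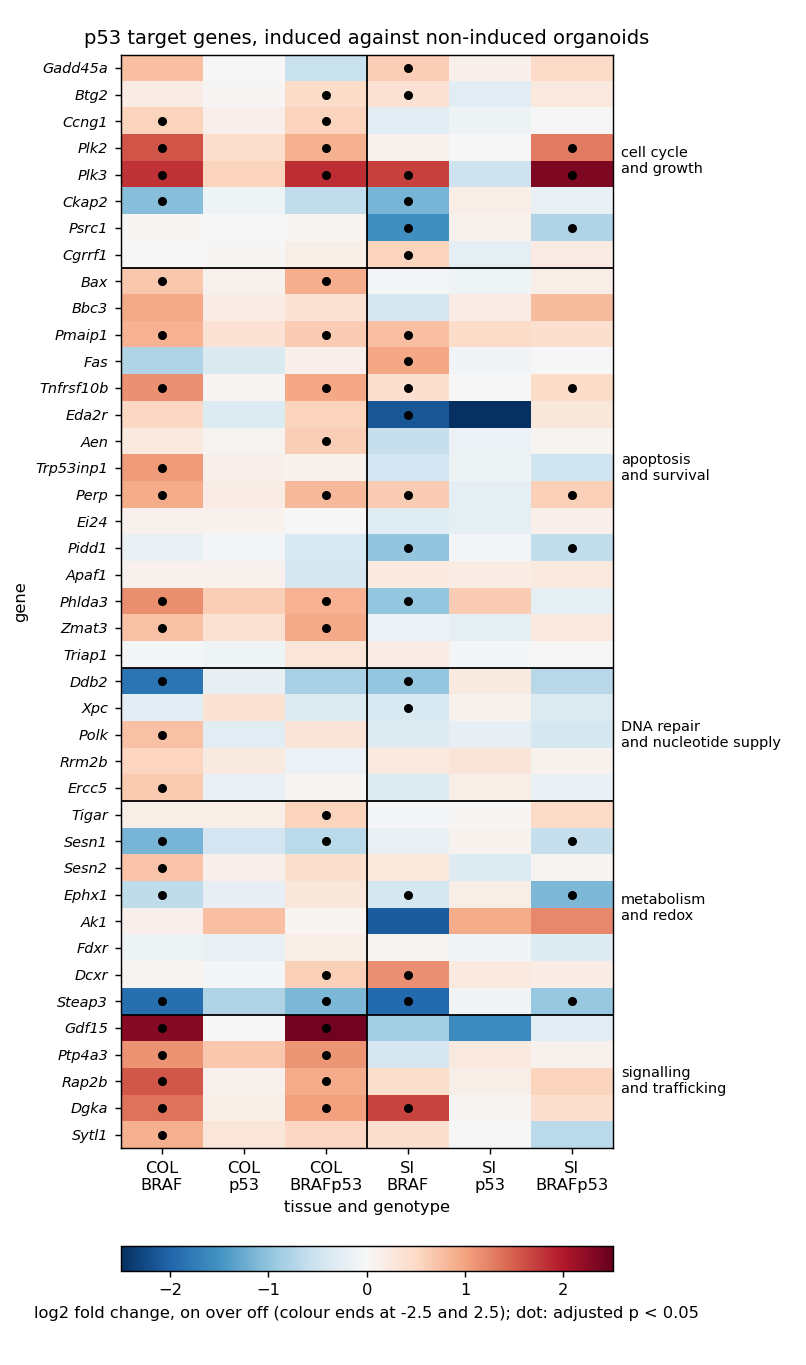
Log2 fold change (on over off, colour) of the 41 p53 target genes, grouped by function, in the 6 on versus off comparisons, with a dot at an edgeR adjusted p under 0.05. COL BRAF and BRAFp53 organoids hold 23 and 19 calls, SI BRAF and BRAFp53 organoids 19 and 9, and p53 organoids 0.

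The first question was how the p53 targets respond to BRAFV600E in colonic organoids. Of the 41 genes, 18 rose (43.9%) and 5 fell (12.2%), whereas 10.3% of all 18972 genes tested rose and 9.61% fell. The median log2 fold change was 0.54 over the 41 genes and -0.01 over all genes. All 5 signalling genes rose, 7 of 15 apoptosis genes rose and 0 fell, and of the 8 metabolic genes 1 rose and 3 fell. In bulk libraries, fewer expressing cells and less RNA per cell cannot be told apart.

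Among the signalling genes, Gdf15, a secreted member of the TGF-beta family, was at 6.95 and 1.89 CPM in the off and at 17.2 and 25.5 CPM in the on libraries of COL BRAF organoids (log2 fold change of 2.27 ± 0.52 SE, edgeR adjusted p = 0.00905). The call was lost without on library 2 (edgeR adjusted p = 0.0539). Rap2b, a small GTPase, rose from 15.1 and 16.9 to 49.4 and 43.8 CPM (log2 fold change of 1.54 ± 0.14 SE, edgeR adjusted p = 3.14e-05). Dgka, a kinase that converts diacylglycerol to phosphatidic acid, rose from 41.1 and 38 to 111 and 90.7 CPM (log2 fold change of 1.35 ± 0.19 SE, edgeR adjusted p = 0.00061). In these 3 genes the off and on libraries did not overlap. Ptp4a3, a phosphatase also known as PRL-3, and Sytl1, a vesicle trafficking protein, had log2 fold changes of 1.13 and 0.88, and Sytl1 was not called without off library 2 or on library 2 (edgeR adjusted p up to 0.0869). Exons of Rap2b and Dgka overlap genes on the opposite strand (B430305J03Rik and Gm37696, and Pmel), and the use of strand in counting is not given in the sources used here.

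Of the cell cycle genes, the polo-like kinases rose. Plk3 was at 10.8 and 8.29 CPM in the off and at 33.7 and 32.8 CPM in the on libraries of COL BRAF organoids (log2 fold change of 1.80 ± 0.25 SE, edgeR adjusted p = 0.000487). Plk2 rose from 39.3 and 41.9 to 116 and 126 CPM (log2 fold change of 1.58 ± 0.11 SE, edgeR adjusted p = 7.26e-06). Cyclin G1 (Ccng1), a partner of phosphatase PP2A, rose from 115 and 114 to 164 and 171.9 CPM (log2 fold change 0.55). All of these on libraries lay above both off libraries. Ckap2, a spindle protein of dividing cells, fell from 28.4 and 37.8 to 15.4 and 16.4 CPM (log2 fold change of -1.06 ± 0.21 SE, edgeR adjusted p = 0.00403). Psrc1, also a spindle protein, was not called, at 25.7 and 27.9 CPM in off and 26.4 and 28.7 CPM in on libraries. Gadd45a, a stress sensor, was not called by edgeR (log2 fold change 0.75, edgeR adjusted p = 0.0905) but was called by DESeq2 and limma-voom. Exons of Plk3 and Gadd45a overlap Tctex1d4 and E230016M11Rik on the opposite strand.

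Of the 15 apoptosis genes 7 rose in COL BRAF organoids and 0 fell. Bax, a pore-forming protein of mitochondria, rose from 169 and 155 to 262 and 257 CPM (log2 fold change of 0.68 ± 0.10 SE, edgeR adjusted p = 0.000871). Tnfrsf10b, the mouse TRAIL receptor, rose from 24.6 and 19.2 to 47.9 and 49 CPM (log2 fold change of 1.14 ± 0.15 SE, edgeR adjusted p = 0.000383). Phlda3, an inhibitor of AKT, rose from 9.84 and 9.39 to 19.8 and 23.3 CPM (log2 fold change of 1.16 ± 0.23 SE, edgeR adjusted p = 0.0043). The on libraries of all 3 genes were above the off libraries. Pmaip1, the BH3-only protein NOXA, Perp, a desmosomal membrane protein, Zmat3, an RNA-binding protein, and Trp53inp1, a p53 cofactor, had log2 fold changes of 0.87, 0.92, 0.73 and 1.07. The Pmaip1 call was lost without off library 1 or on library 1 (edgeR adjusted p up to 0.0751). Fas, the other main death receptor of the list, was not called, at 5.25 and 7.13 CPM in off and 4.48 and 2.87 CPM in on libraries (edgeR adjusted p = 0.0898).

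The decreases in COL BRAF organoids lay among repair and metabolic genes, besides Ckap2. Ddb2, which recognises ultraviolet damage in DNA, fell from 6.9 and 7.94 to 1.86 and 2.36 CPM (log2 fold change of -1.82 ± 0.27 SE, edgeR adjusted p = 0.000782). Steap3, an endosomal ferrireductase, fell from 27.3 and 20.1 to 6.79 and 5.98 CPM (log2 fold change of -1.89 ± 0.22 SE, edgeR adjusted p = 0.000152). Sesn1, an inhibitor of mTORC1 signalling, fell from 25.8 and 23 to 11.3 and 10.6 CPM (log2 fold change of -1.16 ± 0.16 SE, edgeR adjusted p = 0.000523). Its paralogue Sesn2 rose, with a log2 fold change of 0.72. Ephx1 fell from 88.6 and 84 to 52.3 and 58.3 CPM (log2 fold change of -0.64 ± 0.12 SE, edgeR adjusted p = 0.00259). Exons of Ddb2 overlap those of Acp2 on the opposite strand over 652 of 2736 bases, and those of Ephx1 overlap Gm36961 on the same strand over 72 bases. In the 4 genes that fell, no on library reached the level of an off library. Polk, a translesion polymerase, and Ercc5, a nucleotide excision repair endonuclease, rose (log2 fold change 0.74 and 0.65). Polk and Sesn2 were not called without any 1 of the 4 libraries, nor Ercc5 without off library 1, off library 2 or on library 2 (edgeR adjusted p up to 0.0709, 0.158 and 0.306). Of the 23 calls, 17 held under all 11 alternatives.

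**Figure D2:**
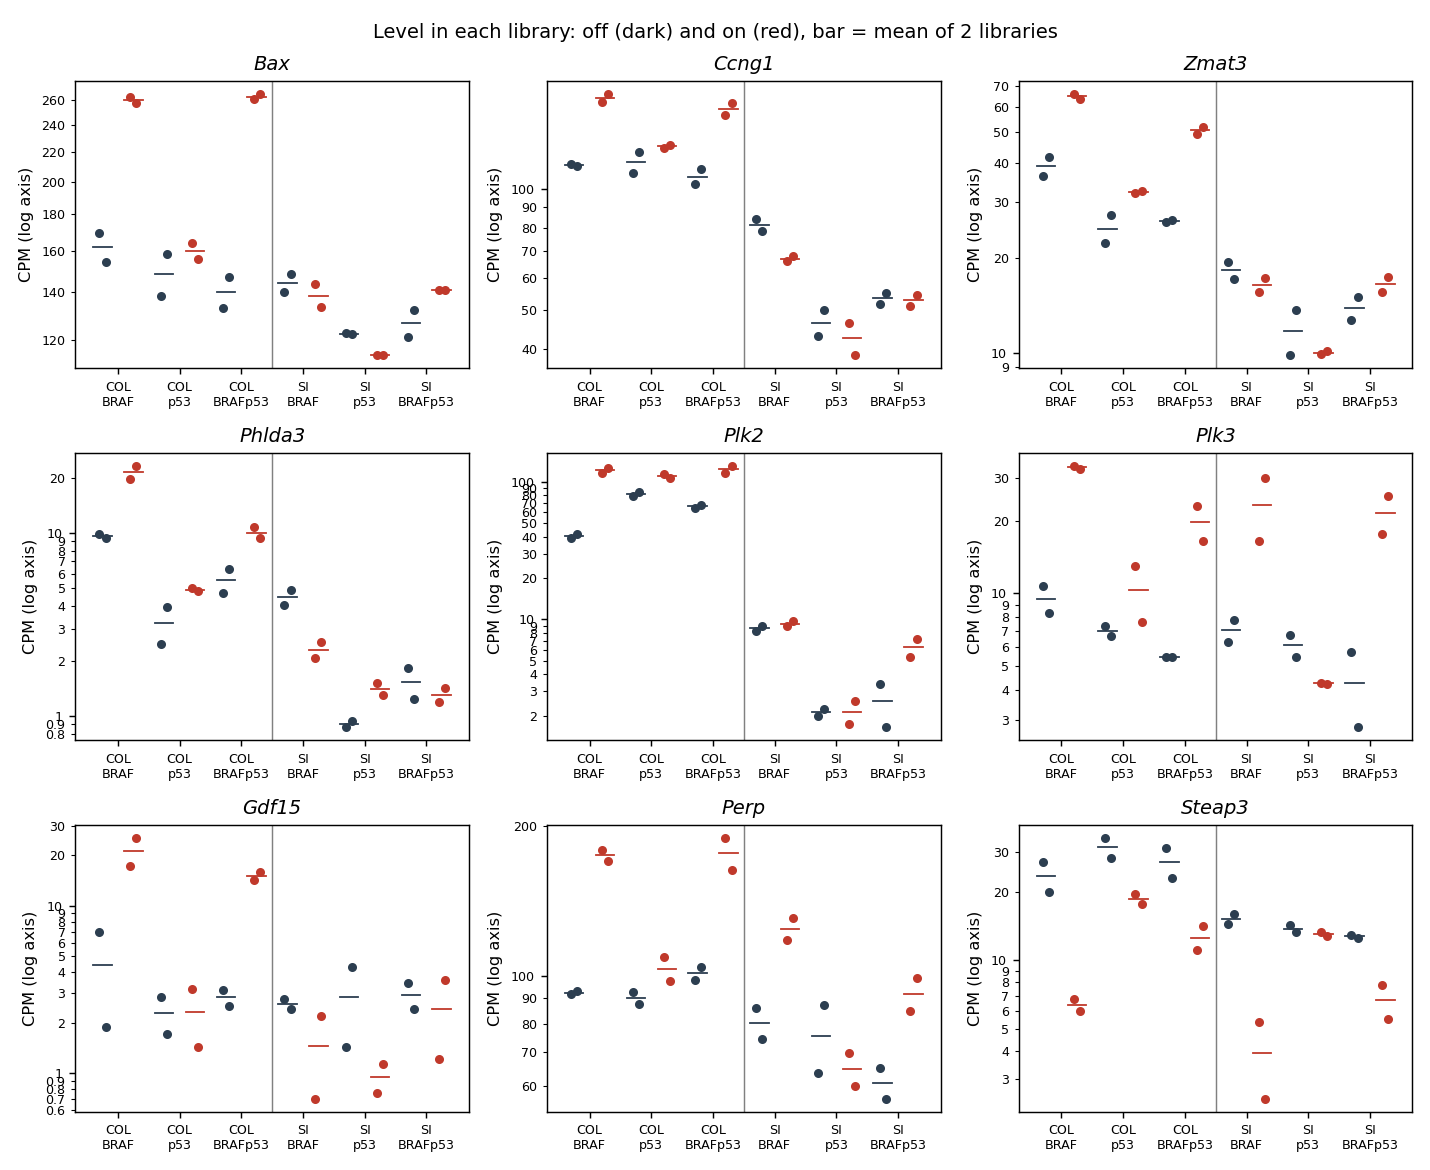
Levels of 9 p53 targets in each of the 24 libraries (points, TMM-scaled CPM on log axes that differ between panels), by culture, with off libraries dark, on libraries red and bars for the mean of 2 libraries. Plk3 and Perp lie higher and Steap3 lower in the on libraries of all 4 cultures with the Braf allele. Bax is at 257 CPM or more in the on libraries of COL BRAF and COL BRAFp53 organoids and at 169 CPM or less in all other libraries.

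The same genes were then examined in COL organoids in which R172H was induced together with BRAFV600E. Here 17 of the 41 genes rose (41.5%) and 2 fell (4.88%), whereas 9.95% of all genes tested rose and 7.76% fell, with medians of 0.36 and -0.04. Of the genes that rose, 13 were shared with COL BRAF organoids (72.2% of 18 and 76.5% of 17), namely Ccng1, Plk2, Plk3, Bax, Pmaip1, Tnfrsf10b, Perp, Phlda3, Zmat3, Gdf15, Ptp4a3, Rap2b and Dgka. Sesn1 and Steap3 fell in both (40% of 5 and 100% of 2). Genes that rose in both were 31.7% of the 41 and 5.73% of the 16307 genes tested in both tissues, and genes that fell in both 4.88% and 4.05%. Of all genes, 51.1% of those that rose in COL BRAF organoids also rose in COL BRAFp53 organoids, as did 51.8% the other way round. These comparisons share no libraries.

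In COL BRAFp53 organoids Gdf15 was at 3.15 and 2.51 CPM in off and at 14.2 and 15.9 CPM in on libraries (log2 fold change of 2.41 ± 0.52 SE, edgeR adjusted p = 0.00838, and 0.0595 without off library 2). Plk3 rose from 5.46 and 5.46 to 23 and 16.5 CPM (log2 fold change of 1.85 ± 0.25 SE, edgeR adjusted p = 0.000558). Ptp4a3 rose from 22.3 and 21.1 to 46.9 and 46.7 CPM (log2 fold change of 1.11 ± 0.11 SE, edgeR adjusted p = 9.74e-05). The on libraries of these genes lay above the off libraries. Dgka rose from 36.7 and 36.4 to 86.9 and 61.9 CPM (log2 fold change 1.03) and Tnfrsf10b from 20.4 and 21.3 to 45.3 and 35.9 CPM (log2 fold change 0.96). Zmat3 rose from 26 and 26.3 to 49.3 and 52 CPM (log2 fold change 0.95), and Bax from 133 and 147 to 261 and 265 CPM (log2 fold change 0.91). Off and on libraries were again separate for these 4 genes. Plk2, Rap2b, Phlda3, Perp, Pmaip1 and Ccng1 had log2 fold changes of 0.90, 0.93, 0.86, 0.80, 0.64 and 0.56.

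Steap3 fell in COL BRAFp53 organoids from 31.4 and 23.2 to 11.1 and 14.2 CPM (log2 fold change of -1.12 ± 0.21 SE, edgeR adjusted p = 0.00352). Sesn1 fell from 25.2 and 24.1 to 17.7 and 13.2 CPM (log2 fold change of -0.67 ± 0.16 SE, edgeR adjusted p = 0.0134). Off and on libraries of both genes were separate. Btg2, an antiproliferative gene, Aen, a nuclease, Tigar, a fructose bisphosphatase, and Dcxr, a carbonyl reductase, rose (log2 fold change 0.46, 0.62, 0.56 and 0.59) and were not called in COL BRAF organoids (0.19, 0.25, 0.16 and 0.06). Exons of Tigar overlap Platr31 on the opposite strand. Of the 19 calls, 12 held under all 11 alternatives. Single libraries decided 6 others, which were Btg2 and Pmaip1 (off library 2 or on library 1), Aen (all but on library 1), Phlda3 (all but off library 2), Tigar (any of the 4) and Sesn1 (off library 1 or on library 2), with an edgeR adjusted p of up to 0.0796, 0.286, 0.269, 0.144, 0.13 and 0.125.

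Whether R172H altered the response to BRAFV600E was tested as the BRAFp53 response minus the BRAF response. In COL, 1 of the 41 genes (2.44%) had a higher response in BRAFp53 organoids and 0 a lower one, whereas 0.532% of all genes had a higher and 0.374% a lower response. The gene was Ephx1, at 88.6 and 84 CPM in off and 52.3 and 58.3 CPM in on BRAF libraries. In BRAFp53 libraries it was at 51.9 and 44.6 CPM in off and 59.8 and 58 CPM in on. The cultures thus differed mainly in the off libraries. The difference of the responses was 0.93 on the log2 scale (SE 0.17, edgeR adjusted p = 0.0404). This call was lost without any 1 of 7 of the 8 libraries, BRAFp53 off library 1 being the exception (edgeR adjusted p up to 0.152). At an unadjusted p under 0.05, 9 of the 41 genes differed (22%), a share near the 19% of all genes. DESeq2 called 6 of the 41 (14.6%), against 9.07% of all genes. The log2 differences of the 4 genes that rose in COL BRAFp53 and were not called in COL BRAF organoids were 0.27 (Btg2), 0.37 (Aen), 0.41 (Tigar) and 0.53 (Dcxr), none of them called by edgeR.

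**Figure D3:**
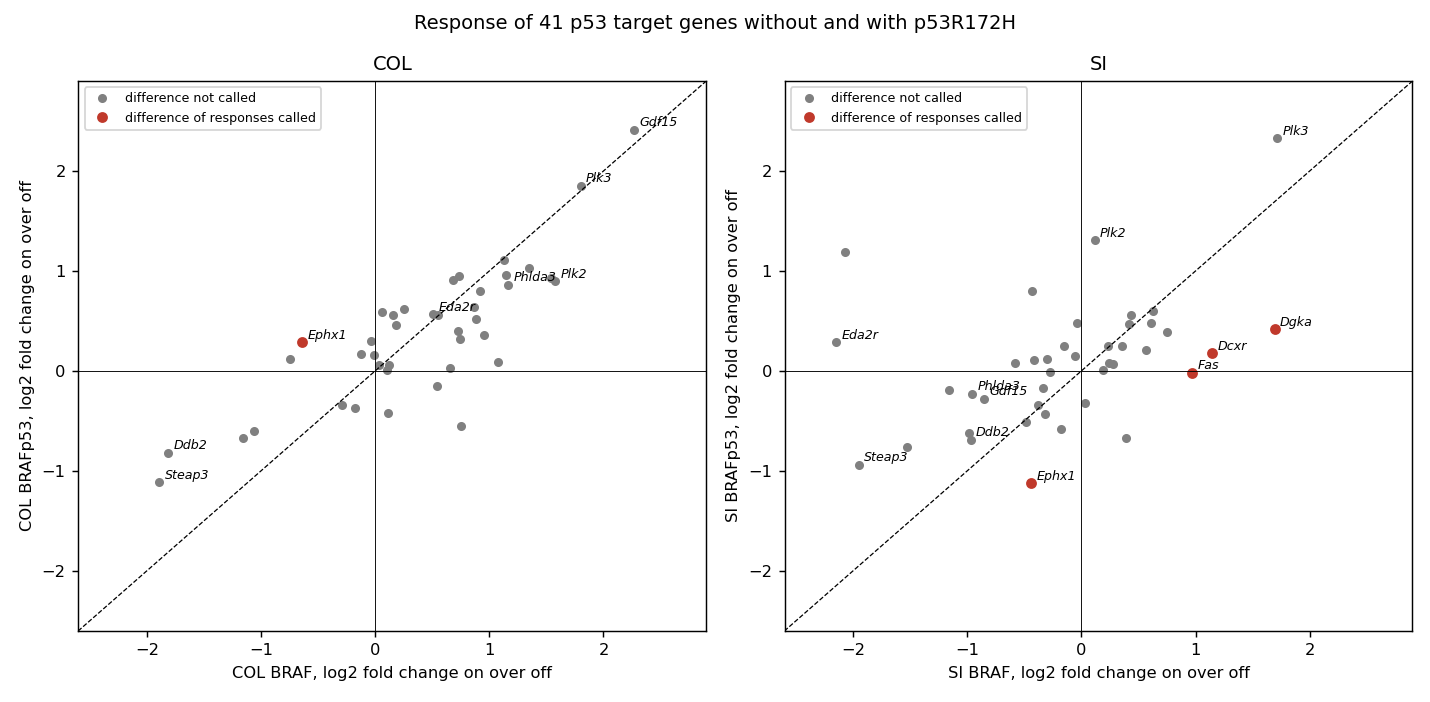
Log2 fold change (on over off) of the 41 p53 targets in BRAF organoids (x axis) against BRAFp53 organoids (y axis), for COL and SI, with a dashed line of equal response and other genes of large change named in grey. Genes whose responses differed by the edgeR test are in red, 1 in COL (Ephx1) and 4 in SI (Dgka, Dcxr, Fas and Ephx1).

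In SI BRAF organoids 22 of the 41 genes were not called. Of the 41, 10 rose (24.4%) and 9 fell (22%), shares not far from those of the whole arm, in which 17.5% of all 16856 genes tested rose and 14.2% fell, with medians of -0.15 and -0.06. Of the 5 signalling genes 1 rose, and of the 15 apoptosis genes 4 rose and 3 fell. Without on library 1, the library with Xist, 10 genes rose and 8 fell, as did 15.4% and 14.3% of all genes. Fewer of the 41 genes were called without off library 2 or without on library 2, with medians of -0.181 and -0.144.

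Plk3 was at 6.28 and 7.79 CPM in off and at 16.5 and 30 CPM in on libraries of SI BRAF organoids (log2 fold change of 1.72 ± 0.33 SE, edgeR adjusted p = 0.00134). Dgka rose from 25.8 and 22.4 to 68.2 and 87.4 CPM (log2 fold change of 1.69 ± 0.16 SE, edgeR adjusted p = 4.29e-06). Dcxr rose from 26 and 24 to 52.4 and 58.1 CPM (log2 fold change of 1.14 ± 0.14 SE, edgeR adjusted p = 3.59e-05). For all 3 genes the on libraries lay above the off libraries. Both death receptors rose, Fas from 11 and 9.71 to 20.4 and 20.1 CPM (log2 fold change of 0.97 ± 0.19 SE, edgeR adjusted p = 0.00204) and Tnfrsf10b with a log2 fold change of 0.42. Pmaip1 rose from 27.5 and 22.3 to 44.4 and 39.4 CPM (log2 fold change 0.75) and Perp from 86.2 and 74.6 to 118 and 131 CPM (log2 fold change 0.63). Gadd45a, Btg2 and Cgrrf1, a RING finger protein, rose with log2 fold changes of 0.61, 0.35 and 0.56. Calls lost when a library was left out were those of Pmaip1 and Cgrrf1 (off library 2), Perp (off or on library 2), and Gadd45a, Btg2 and Tnfrsf10b (either off library or on library 2), with an edgeR adjusted p of up to 0.0701, 0.0691, 0.0851, 0.314, 0.133 and 0.19. Bax, which rose in COL, was not called, at 140.3 and 148 CPM in off and 144 and 134 CPM in on libraries.

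Eda2r, a TNF family receptor for ectodysplasin A2, was at 5.67 and 4.86 CPM in off and at 1.58 and 0.774 CPM in on libraries of SI BRAF organoids (log2 fold change of -2.15 ± 0.52 SE, edgeR adjusted p = 0.00673, and 0.0598 without on library 2). Steap3 fell from 14.5 and 16 to 5.35 and 2.45 CPM (log2 fold change of -1.95 ± 0.28 SE, edgeR adjusted p = 0.000154). Both spindle genes fell, Psrc1 from 12.8 and 14.6 to 5.23 and 4.28 CPM (log2 fold change -1.53) and Ckap2 from 31.1 and 28.9 to 18.1 and 8.59 CPM (log2 fold change -1.16). Off and on libraries of these 4 genes did not overlap. Pidd1, the scaffold of a caspase-2 activating complex, fell from 15.2 and 16.7 to 7.61 and 8.54 CPM (log2 fold change of -0.98 ± 0.16 SE, edgeR adjusted p = 0.000442). Ddb2 fell from 3.06 and 3.65 to 1.84 and 1.57 CPM (log2 fold change -0.97). Phlda3 fell from 4.05 and 4.91 to 2.08 and 2.53 CPM (log2 fold change -0.96, edgeR adjusted p = 0.0264), and it was the 1 gene of the 41 with calls in opposite directions (2.44%, against 2.24% of all genes). Without off library 2, on library 1 or on library 2 the Phlda3 call was lost (edgeR adjusted p up to 0.148). Ephx1 and Xpc, a damage sensor, had log2 fold changes of -0.44 and -0.38, and Xpc kept its call in 1 of 11 alternatives. The Ddb2 call was lost without off library 2 or on library 2, and that of Ephx1 without off library 1 or on library 2 (edgeR adjusted p up to 0.0608 and 0.115).

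In SI BRAFp53 organoids 4 of the 41 genes rose (9.76%) and 5 fell (12.2%), whereas 6.98% of all genes rose and 4.53% fell, with medians of 0.08 and -0.03. Plk3 was at 5.73 and 2.81 CPM in off and at 17.6 and 25.3 CPM in on libraries (log2 fold change of 2.33 ± 0.33 SE, edgeR adjusted p = 0.000515). Plk2 rose from 3.42 and 1.66 to 5.36 and 7.18 CPM (log2 fold change of 1.31 ± 0.31 SE, edgeR adjusted p = 0.0139). Perp rose from 65.3 and 56.5 to 84.8 and 99 CPM (log2 fold change 0.59) and Tnfrsf10b from 17.3 and 16.6 to 21.9 and 24.9 CPM (log2 fold change 0.46). No off library of these genes reached an on library. Plk3, Perp and Tnfrsf10b were shared with SI BRAF organoids (30% of 10 and 75% of 4) and thus rose in all 4 comparisons with the Braf allele (7.32% of the 41, against 2.51% of all genes). Of all genes 5.64% rose in both SI comparisons, which was 31.6% of those that rose in BRAF and 79.1% of those that rose in BRAFp53 organoids.

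Ephx1 fell in SI BRAFp53 organoids from 355 and 315 to 161 and 146 CPM (log2 fold change of -1.12 ± 0.12 SE, edgeR adjusted p = 3.57e-05). Steap3 fell from 13 and 12.6 to 7.83 and 5.54 CPM (log2 fold change of -0.94 ± 0.26 SE, edgeR adjusted p = 0.0363) and was the 1 gene of the 41 that fell in all 4 comparisons with the Braf allele (2.44%, against 0.816% of all genes). Psrc1 fell from 7.75 and 5.48 to 4.14 and 3.68 CPM (log2 fold change -0.76). Off and on libraries were separate for these 3 genes. Pidd1 fell from 13.5 and 15.5 to 9.37 and 9.47 CPM (log2 fold change -0.62) and Sesn1 from 37.9 and 39.6 to 26.6 and 25.3 CPM (log2 fold change -0.58). Ephx1, Steap3, Psrc1 and Pidd1 fell in SI BRAF organoids as well (44.4% of 9 and 80% of 5). They were 9.76% of the 41, whereas 2.29% of all genes fell in both, which was 15.7% of those that fell in BRAF and 49.7% of those that fell in BRAFp53 organoids. Plk3 and Ephx1 kept their calls under all 11 alternatives, and each of the other 7 calls was lost without at least 1 library. The number of calls was 4 without off library 1, 3 without off library 2, 5 without on library 1 and 2 without on library 2.

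In SI, 4 of the 41 genes (9.76%) had a lower response in BRAFp53 than in BRAF organoids and 0 a higher one, whereas 6.28% of all genes had a lower and 1.93% a higher response. Dgka was at 24.6 and 20.8 CPM in off and 28 and 32.5 CPM in on BRAFp53 libraries, and the difference of the log2 responses was -1.28 (SE 0.22, edgeR adjusted p = 0.00323). Dcxr was at 32.6 and 32.3 CPM in off and 38.7 and 34.8 CPM in on BRAFp53 libraries, with a difference of -0.97 (SE 0.19, edgeR adjusted p = 0.00764). Fas was at 11 and 9.71 CPM in off and 20.4 and 20.1 CPM in on BRAF libraries. In BRAFp53 libraries it was at 19.1 and 16.4 CPM in off and 17.4 and 17.6 CPM in on. The cultures thus differed mainly in the off libraries. For Fas the difference of the responses was -0.98 (SE 0.27, edgeR adjusted p = 0.0428). For Ephx1 it was -0.68 (SE 0.16, edgeR adjusted p = 0.0212), opposite in sign to the difference in COL. Dgka and Dcxr kept their calls under all 14 alternatives. The Fas call was lost without any 1 of 7 of the 8 libraries, BRAFp53 off library 2 being the exception, and that of Ephx1 without any 1 of 4 libraries (BRAF off library 2, BRAF on library 2, BRAFp53 off library 1 or BRAFp53 on library 2), with an edgeR adjusted p of up to 0.165 and 0.11. Without SI BRAF on library 1 higher responses in BRAFp53 organoids were called as well, so the 0 above depended on this library. The median difference over the 41 genes was then 0.079, against 0.125 with it. Without BRAF off library 2, BRAF on library 2 or BRAFp53 on library 2, 2 genes were called.

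R172H alone was followed by 0 called changes among the 41 genes in either tissue by edgeR, whereas 0.142% of all genes were called in COL p53 organoids and 0% in SI p53 organoids. In COL, 8 of the 41 genes had an unadjusted p under 0.05 (19.5%), as did 8.34% of all genes. The log2 fold changes of these 8 genes were 0.66 (Ptp4a3), 0.61 (Phlda3), 0.56 (Plk3), 0.44 (Plk2), 0.38 (Zmat3), 0.38 (Xpc), -0.48 (Sesn1) and -0.76 (Steap3). Ptp4a3 was at 17.1 and 17 CPM in off and 27 and 27 CPM in on libraries (SE 0.11, edgeR adjusted p = 0.057). Plk2 was at 78.4 and 84.6 CPM in off and 114 and 107 CPM in on libraries (edgeR adjusted p = 0.156), and Steap3 at 34.9 and 28.3 CPM in off and 19.6 and 17.7 CPM in on libraries (edgeR adjusted p = 0.22). Off and on libraries of these 3 genes did not overlap, and DESeq2 called all 3. The shares of all genes with such a separation or a DESeq2 call in COL p53 organoids are not given here. In SI p53 organoids Btg2, Pmaip1, Eda2r and Gdf15 had an unadjusted p under 0.05 (9.76%), as did 5.18% of all genes, and DESeq2 called 0 of the 41. Without a filter on low counts edgeR called Eda2r and Gdf15 there, with Eda2r at 0.252 and 0.133 CPM in off and 0 and 0.0521 CPM in on libraries, where 3 counts correspond to up to 0.0676 CPM.

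Whether a response differed between COL and SI was tested in a model of all 24 libraries. The BRAF response was higher in COL than in SI for 15 of the 41 genes (36.6%) and lower for 3 (7.32%), whereas 3.31% of all 19673 genes tested had a higher and 7.4% a lower response in COL. Of the 15 apoptosis genes, 7 had a higher response in COL and Fas a lower one. Phlda3 differed by 2.08 on the log2 scale (SE 0.35, edgeR adjusted p = 0.00066), having risen in COL and fallen in SI. In SI its off level was higher in the BRAF culture than in the other cultures (log2 ratio 1.87). Eda2r differed by 2.61, Trp53inp1 by 1.52, Zmat3 by 0.84, Pidd1 by 0.76, Bax by 0.70 and Tnfrsf10b by 0.68. For Fas the difference was -1.75 (SE 0.36, edgeR adjusted p = 0.00358). In the signalling group Gdf15, Ptp4a3 and Rap2b differed by 3.08, 1.50 and 1.07, and in the cell cycle group Psrc1, Plk2 and Ccng1 by 1.52, 1.42 and 0.79. Polk and Ercc5 of the repair group differed by 1.02 and 0.95. The metabolic genes Sesn1 and Dcxr had lower responses in COL, by differences of -1.01 and -1.13. Of the 18 calls 12 held under all 14 alternatives, the exceptions being Tnfrsf10b, Pidd1, Zmat3, Polk, Ercc5 and Gdf15, each of which was lost without any 1 of several libraries of either tissue (edgeR adjusted p up to 0.158, 0.209, 0.0783, 0.15, 0.137 and 0.138). Tnfrsf10b, Pidd1, Zmat3, Ercc5 and Gdf15 were among those lost without the SI library that held Xist. The median difference over the 41 genes was then 0.455, against 0.367 with it.

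The BRAFp53 response was higher in COL than in SI for 3 of the 41 genes (7.32%) and lower for 0, whereas 1.39% of all genes had a higher and 2.13% a lower response. These were Ephx1 (difference 1.37, SE 0.17, edgeR adjusted p = 0.000179), Ptp4a3 (0.96, edgeR adjusted p = 0.022) and Bax (0.72, edgeR adjusted p = 0.00433). Bax and Ephx1 held under all 14 alternatives, and Ptp4a3 was lost without any 1 of 5 libraries (edgeR adjusted p up to 0.159). DESeq2 called 9 of the 41 genes (22%), against 11.7% of all genes. For p53 organoids 0 of the 41 genes differed between tissues, whereas 0.117% of all genes did, with 5 of the 41 at an unadjusted p under 0.05 (12.2%, against 7.79% of all genes) and 2 called without a filter on low counts.

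**Figure D4:**
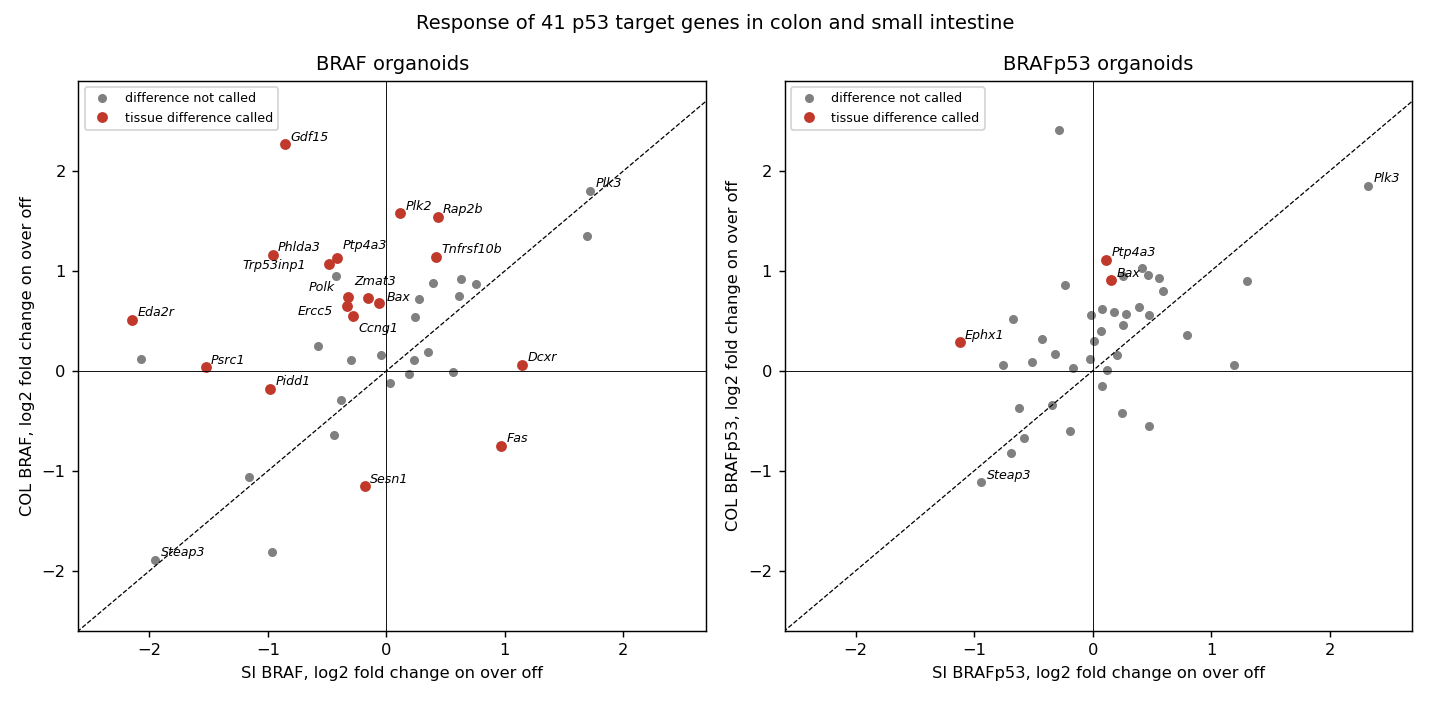
Log2 fold change (on over off) of the 41 p53 targets in SI (x axis) against COL (y axis), for BRAF and BRAFp53 organoids, with a dashed line of equal response. Genes whose response differed between tissues by the edgeR test in the joint fit are in red, 18 for BRAF and 3 for BRAFp53.

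Off organoids of the tissues were compared over the 3 cultures of each. Of the 41 genes 11 were higher in COL (26.8%) and 4 lower (9.76%), whereas 17% of all 17789 genes tested were higher and 12.6% lower. Plk2 was at 38.4, 78.1 and 63.2 CPM in the COL BRAF, p53 and BRAFp53 cultures and at 9.78, 2.41 and 2.88 CPM in those of SI (log2 difference 3.58, SE 0.61, edgeR adjusted p = 0.00681). Rap2b was at 15.1, 31.4 and 27.5 CPM in COL and at 10.4, 8.03 and 8.58 CPM in SI (log2 difference 1.46, SE 0.29, edgeR adjusted p = 0.0108). For Plk2 and Rap2b the COL cultures lay above the SI cultures. Ak1, Ptp4a3 and Dcxr had log2 differences of 1.80, 0.92 and 0.86. Ephx1 was lower in COL, at 81.9, 63.4 and 46 CPM against 269.8, 351 and 379.7 CPM (log2 difference -2.39, SE 0.25, edgeR adjusted p = 0.00186). Sesn1 was at 23.2, 17.1 and 23.5 CPM in COL and at 42.5, 43.1 and 44 CPM in SI (log2 difference -1.02, SE 0.16, edgeR adjusted p = 0.00503), and again the cultures were separate. Fas and Fdxr, a mitochondrial reductase, had log2 differences of -1.34 and -0.66. Plk2, Sesn1 and Ephx1 held under all 11 alternatives, and the number of calls fell from 15 to 8 without the COL BRAFp53 culture, 5 without the SI BRAFp53 culture and 3 without the SI p53 culture. The SI p53 and BRAFp53 cultures express Xist and those of COL do not (at most 0.044 CPM), so that for these 2 genotypes the donor animals differed between tissues, whereas the study's methods name a single donor mouse for each genotype. For p53 and BRAFp53 organoids the tissue differences in response thus cannot be told apart from donor and sex either. The BRAF cultures of both tissues express Ddx3y, and whether they share a donor was not tested.

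The off levels were also read by genotype, a comparison chosen after its values were seen. In SI, both off libraries of the BRAF culture were above the 4 others for 20 of the 41 genes (48.8%) and below them for 4, as for 15.4% and 16.8% of all genes. In COL they were above for 10 (24.4%) and below for 6, as for 15.1% and 14.4% of all genes. Of the 9 genes that fell in SI BRAF organoids, 6 had both off BRAF libraries above the 4 others. So had 3 of the 10 that rose and 11 of the 22 not called. These falls and off levels share the same off libraries. Psrc1, Phlda3, Zmat3, Ptp4a3 and Sytl1 were above in both tissues (12.2%, against 2.88% of all genes), and 0 of the 41 were below in both (2.15% of all genes). The log2 ratio of the BRAF culture to the mean of the others was 1.13 in COL and 1.87 in SI for Phlda3, 0.61 and 0.51 for Zmat3, and 0.59 and 1.11 for Psrc1. Eda2r (-0.71 and 3.57), Plk2 (-0.86 and 1.89), Trp53inp1 (-1.47 and 0.78) and Rap2b (-0.95 and 0.35) were below in COL and above in SI. Ephx1 (0.59 and -0.41) was above in COL and below in SI. With 1 culture per genotype, the number of functional Trp53 alleles cannot be told apart from the donor. In SI it cannot be told apart from sex either, since the BRAF culture expressed Y-linked Ddx3y (30.5 to 36.2 CPM) and little Xist, whereas the p53 and BRAFp53 cultures expressed Xist and at most 0.0582 CPM of Ddx3y. The same holds for each SI comparison of BRAF with BRAFp53 responses, and Eda2r lies on chromosome X.

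**Figure D5:**
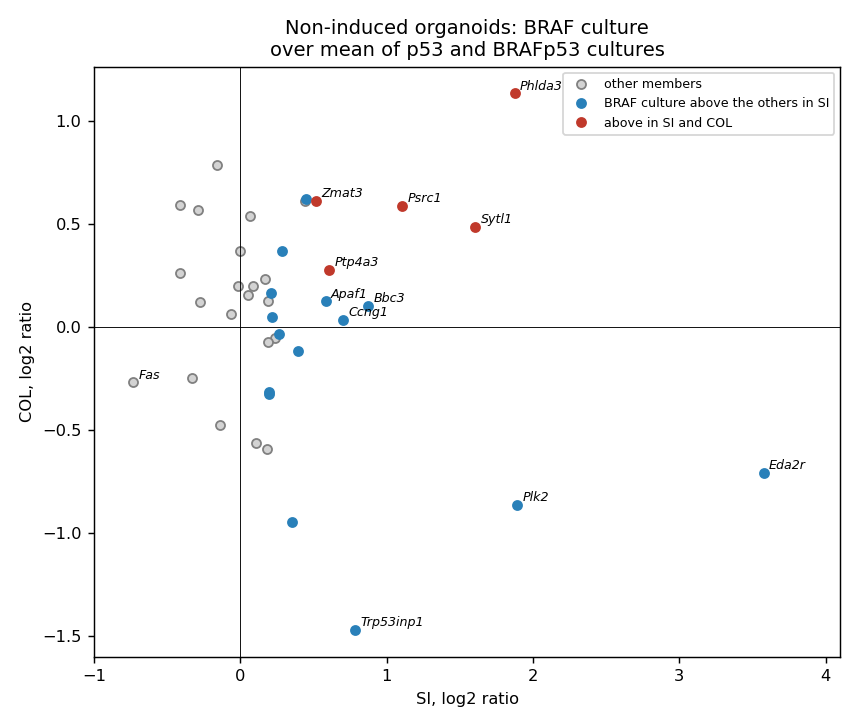
Log2 ratio of the off BRAF culture to the mean of the off p53 and BRAFp53 cultures for the 41 p53 targets, in SI (x axis) and COL (y axis). Genes with both BRAF libraries above the 4 others in SI are in blue, and the 5 for which this holds in both tissues are in red. In SI, 20 genes have both BRAF libraries above the 4 others and 4 have both below, and in COL 10 and 6.

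Over the 6 comparisons, 7 of the 41 genes were not called in any (17.1%, against 50.9% of the 16307 genes tested in both tissues), namely Bbc3, the BH3-only protein PUMA, Apaf1, the core of the apoptosome, Ei24, Triap1, Rrm2b, Ak1 and Fdxr. Plk2, Plk3, Pmaip1, Tnfrsf10b, Perp, Phlda3, Sesn1, Ephx1, Steap3 and Dgka were called in 3 or more (24.4%, against 10.1%). Over all genes, the shares that rose and fell were 10.3% and 9.61% in COL BRAF, 9.95% and 7.76% in COL BRAFp53, 17.5% and 14.2% in SI BRAF, and 6.98% and 4.53% in SI BRAFp53 organoids. The 4 members known to respond to ATF4 or CHOP rose as 4 of 4 in COL BRAF, 3 in COL BRAFp53, 2 in SI BRAF and 1 in SI BRAFp53 organoids. The 4 immediate early members rose as 2, 3, 3 and 2 in the same order, and the 2 spindle genes fell as 1, 0, 2 and 1. Of 8 feedback genes of ERK signalling, such as Dusp6 and Spry4, 6, 5, 4 and 6 rose and 0 fell, and 0 were called in p53 organoids. Without SI BRAF on library 1 the counts of these lists in SI BRAF organoids were 2, 3 and 2, and 3 for the feedback genes.

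Among 18 regulators of p53, of which 17 were tested in COL and 16 in SI, 2 rose and 6 fell in COL BRAF, 2 and 7 in COL BRAFp53, 0 and 7 in SI BRAF, and 2 and 1 in SI BRAFp53 organoids, to be read against the shares of all genes above. Without SI BRAF on library 1, 0 rose and 5 fell in SI BRAF organoids. The regulators that fell in COL BRAF, COL BRAFp53 and SI BRAF organoids included the damage kinases Atm, Chek1 and Chek2. Mdm2, the p53 ubiquitin ligase and itself a p53 target, had log2 fold changes of 1.05, 0.73, 0.29 and 0.43 in these 4 comparisons (edgeR adjusted p = 0.000552, 0.0053, 0.101 and 0.0444). The call in SI BRAFp53 organoids was lost without any 1 of the 4 libraries (edgeR adjusted p up to 0.276). Among 16 further p53 targets outside the list of 41, of which 16 were tested in COL and 15 in SI, 6 rose and 1 fell in COL BRAF, 5 and 0 in COL BRAFp53, 5 and 2 in SI BRAF, and 3 and 1 in SI BRAFp53 organoids, with 0 called in p53 organoids. Without SI BRAF on library 1, 5 rose and 3 fell in SI BRAF organoids. Cdkn1a, the cell cycle inhibitor p21, rose in all 4, with log2 fold changes of 1.02, 1.31, 1.65 and 1.12 (edgeR adjusted p = 0.00152, 0.000453, 1.86e-06 and 0.000135). Without SI BRAF on library 1 the SI BRAF values were 1.82 for Cdkn1a (edgeR adjusted p = 8.45e-07) and 0.41 for Mdm2 (edgeR adjusted p = 0.0522). In COL p53 organoids Cdkn1a and Mdm2 had log2 fold changes of -0.28 and 0.33, and in SI p53 organoids of 0.26 and -0.01, none of them called.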

How the data were processed

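RNA of 24 organoid libraries was sequenced as paired ends on a HiSeq4000. The authors deposited whole-number read counts per Ensembl gene in one table per tissue, and the submitters' processing notes name Trimmomatic 0.36, STAR 2.5.2b and the mouse builds mm10 and mm9. Which annotation was used and whether counting used strand are not given in the sources used here. Gene symbols were matched for 45143 of 45706 identifiers from GENCODE M21 on GRCm38. Groups were taken from the labels.

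For each tissue, counts were filtered by filterByExpr, scaled by TMM and fitted with edgeR 4.0.16 (R 4.3.3) with a mean per genotype and state, and quasi-likelihood tests were adjusted over all genes by the Benjamini-Hochberg method. Genes with an adjusted p under 0.05 were called. Tissue differences came from 1 fit of all 24 libraries, and off cultures were summed per culture (3 against 3). The scripts were tested on simulated counts. Same-numbered off and on libraries did not deviate together (r from -0.039 to 0.057), so the numbers do not pair the samples. Alternatives were RLE scaling, no filter, limma-voom (limma 3.58.1, the tool of the study), DESeq2 1.42.0, a minimum of 10 counts per library, the replicate number as a block, the 4 libraries of an arm alone, and leaving out each library or culture.

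The members and lists were chosen with earlier results of these data known. Values per library are given for up to 6 called members per direction in each on versus off comparison (5 in the off comparison), members called in 3 or more comparisons and members with differing responses are named, and beyond this rule the values of Bax, Ccng1 and Tnfrsf10b in COL BRAF, Bax in COL BRAFp53, Phlda3 in SI BRAF and of some members that were not called are given, chosen after they were seen. Libraries of a group differed by far more than sampling noise (20.5 to 92.4 as chi-square over degrees of freedom).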

Additional observations from a re-analysis of the deposited data

Results flagged for a closer look

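The responses of 26 gene and contrast pairs differed between groups by the edgeR test of the difference itself (adjusted p under 0.05), and all values are differences of log2 fold changes.

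For BRAFp53 minus BRAF organoids, the difference was 0.93 for Ephx1 in COL, and in SI it was -0.98 for Fas, -0.68 for Ephx1, -0.97 for Dcxr and -1.28 for Dgka. Ephx1 therefore differed in opposite directions in the tissues.

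For COL minus SI in BRAF organoids, the differences of the cell cycle genes were 0.79 (Ccng1), 1.42 (Plk2) and 1.52 (Psrc1). Those of the apoptosis genes were 0.70 (Bax), -1.75 (Fas), 0.68 (Tnfrsf10b), 2.61 (Eda2r), 1.52 (Trp53inp1), 0.76 (Pidd1), 2.08 (Phlda3) and 0.84 (Zmat3). The repair and metabolic genes gave 1.02 (Polk), 0.95 (Ercc5), -1.01 (Sesn1) and -1.13 (Dcxr), and the signalling genes 3.08 (Gdf15), 1.50 (Ptp4a3) and 1.07 (Rap2b). In BRAFp53 organoids the differences were 0.72 (Bax), 1.37 (Ephx1) and 0.96 (Ptp4a3).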

How the results depend on the processing

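For single genes, 1488 of 1831 calls under an alternative stayed on the same side of the threshold, 240 lost it, 103 gained it and 0 reversed. Without a filter on low counts the 41 genes held 2 calls in COL p53, 2 in SI p53, 4 and 9 for BRAFp53 minus BRAF in COL and SI, and 2 and 5 for COL minus SI in p53 and BRAFp53 organoids. With at least 10 counts in every library these were 1 in COL p53, 2 for the COL genotype difference and 6 for the BRAFp53 tissue difference. DESeq2 called 3 in COL p53, 6 and 7 for the genotype differences in COL and SI, and 9 for the BRAFp53 tissue difference. The replicate block gave 2 for the COL genotype difference, where edgeR without the block gave 1, and moved no other count by over 1.5 times. Leaving out 1 library gave, with newly gained calls included, 18 to 20 calls against 23 in COL BRAF, 15 to 16 against 19 in COL BRAFp53, 10 to 18 against 19 in SI BRAF, 2 to 5 against 9 in SI BRAFp53, 0 to 1 against 1 and 2 to 9 against 4 for the genotype differences in COL and SI, and 13 to 16 against 18 and 2 to 3 against 3 for the tissue differences in BRAF and BRAFp53 organoids. Leaving out 1 culture gave 3 to 15 calls for off organoids, against 15. The cause of these shifts was not tested. With 2 libraries per group the precision is limited by their number, and depth limits Eda2r and Ak1 in SI.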
